A study of Homo sapiens with 2 samples.

Results

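Complement system genes were examined in a pair of PLC lines, which are human liver cancer cells. One line carried the pCDH empty vector (EV) and the other stably expressed human PRSS35 from the same vector. The group holds 34 genes, listed by name, and all of them were found among the 24991 gene names that the RNA-seq tables of both cell lines share. Each condition is a single library, so no difference below can be set against a spread between cultures, and no test was run. In bulk RNA, fewer cells that express a gene and less RNA per cell cannot be told apart. PLC lines in the study were made by lentiviral infection and puromycin selection, so EV cells passed through both as well, and neither line was treated. Whether the lines were clones or pools is not given in the sources used here. PRSS35 is a secreted protease of the trypsin-like family. The study set RNA sequencing beside mass spectrometry of proteins in the culture medium. Its aim was to find secreted proteins that were lower with PRSS35 while their transcripts were not.

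Complement is a cascade of plasma proteins that marks, opsonises and lyses foreign or damaged cells. It is started by C1 bound to antibody, by lectins bound to sugars, or by the slow turnover of C3 in the alternative pathway. All routes cleave C3 and then C5, and C5b recruits C6, C7, C8 and C9 into the membrane attack complex. Hepatocytes make most of the circulating components, macrophages are the main source of C1q, and host cells protect themselves with regulators in plasma and on the membrane.

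Levels are given as FPKM, a fragment count scaled to transcript length and sequencing depth, with the interval that the deposited Cufflinks output puts around each value. This interval covers error within a library and leaves out variation between cultures. The tables hold no read counts, but for 2359 names whose locus was annotated in both, 1 implied fragment (explained with C8A) was worth the same FPKM in PRSS35 as in EV, with a median ratio of 1.00. PRSS35 itself was at 0.643 FPKM in EV and 1836 FPKM in PRSS35 cells, as the labels say. The 9 hepatocyte markers summed to 3413 FPKM in EV and 5175 in PRSS35, and the median log2 change of the 8 with a mean of at least 1 FPKM was 0.20. Of these 8, 6 had a log2 change above 0 and 2 below it, and most of the rise in the sum came from SERPINA1. AFP, 1 of the 2 lower, was at 18.9 FPKM in EV and 17.7 in PRSS35, with intervals that overlapped. SERPINA1 was at 2528 and 4239 FPKM, TF at 224 and 348, HNF4A at 41.2 and 47.7, and APOA1 at 576 and 494, all with intervals that did not overlap, and none differed by 2-fold. ALB was low, at 4.05 and 5.21 FPKM, as were TTR at 1.56 and 1.61 and FGB at 0.598 and 0.540. The leukocyte marker PTPRC and the macrophage markers CD163 and MARCO were listed at 0 in both libraries. The macrophage markers CD14, CSF1R and ADGRE1 had means between 0.0385 and 0.117 FPKM. The summed FPKM of all 7 macrophage markers was 391 in EV and 382 in PRSS35. Nearly all of it came from LYZ, at 94.0 and 104 FPKM, and from the locus that joins CD68 with MPDU1, at 297 and 278 FPKM. The 3 pan-leukocyte markers summed to 8.42 FPKM in EV and 8.71 in PRSS35, nearly all from the locus that holds CORO1A. Endothelial markers summed to 0.0373 and 0.0307 FPKM and stellate cell and fibroblast markers to 1.75 and 2.03, in EV and PRSS35 respectively.

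Most of the complement FPKM listed for PLC cells came from a few genes. Of the 34 genes, 9 reached a mean of 1 FPKM across the pair of libraries and are called expressed here, 14 lay above 0 but below that level, and 11 were listed at 0 in both. Summed over the 34 genes the FPKM was 688 in EV and 692 in PRSS35 cells, of which VTN, CLU, C3 and CFD made up 96.9% and 95%. For each of these 4 transcripts the intervals of the libraries overlapped. On the scale log2(FPKM + 1), which understates the change of low genes, C8A and C8G were higher by 2-fold or more in PRSS35 cells. C8A and C8G encode chains of C8, a component of the membrane attack complex. Both passed the limit of a mean of 1 FPKM only through PRSS35, the library in which they were higher, so their calls are tied to that filter. The call for C8G rests on a value of 0 in EV, and the size of its log2 change depends on the pseudocount. The call for C8A was lost with a pseudocount of 5 FPKM, where its log2 change was 0.42. No expressed complement gene was lower by 2-fold. Across all 10133 expressed names, 1.89% were higher and 1.84% lower by 2-fold or more. The median log2 change of the 9 expressed complement genes was 0.05, and that of all expressed names was 0.06.

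**Figure D1:**
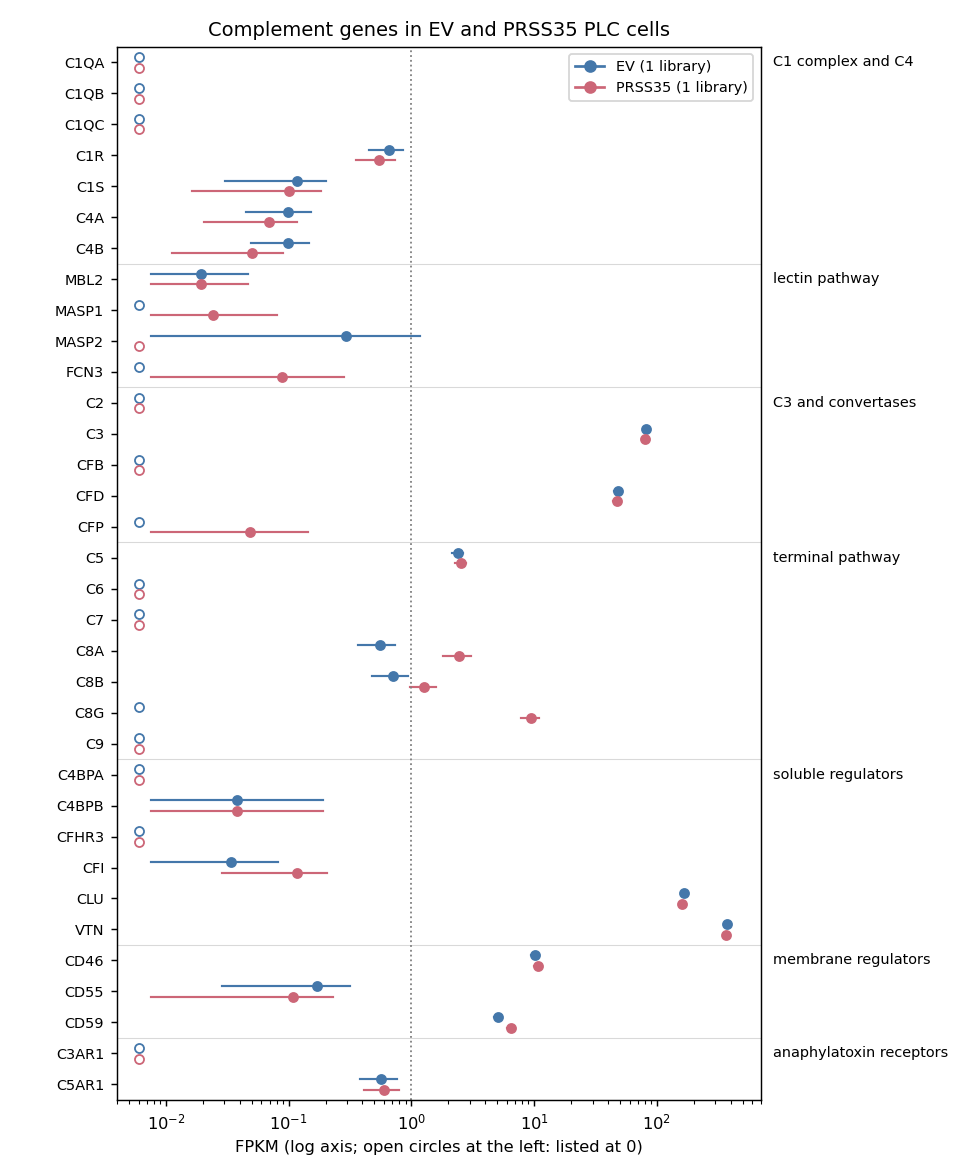
FPKM of the 34 complement genes (log axis) in the EV and PRSS35 libraries, ordered by role, with bars for the interval of each value (cut off at the left where it reaches 0), open circles for genes listed at 0 and a dotted line at 1 FPKM. VTN, CLU, C3 and CFD lie far to the right with both libraries on top of each other, the intervals of C8A, C8B and CD59 do not overlap and C8G is above 0 in PRSS35 alone, and low genes such as CFI and C4B lie apart with wide intervals that overlap.

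VTN, encoding vitronectin, which keeps the terminal complex from inserting into membranes, was the most abundant transcript of the group. It had 370.3 FPKM (interval 354 to 387) in EV and 368 FPKM (interval 352 to 384) in PRSS35, at rank 376 and 378 among all names. The gene lies on chromosome 17 of hg19, from 26694299 to 26697373, and its log2 change was -0.01. CLU, encoding clusterin, a plasma chaperone that also binds the terminal complex, followed with 167 FPKM (interval 161 to 172) in EV and 162 FPKM (interval 157 to 168) in PRSS35, a log2 change of -0.04. The intervals of both genes overlapped between the libraries. Within each library the intervals of VTN and CLU lay far apart, so that their order was the same in both.

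The other soluble regulators of the group were scarce. CFI, the protease that inactivates C3b and C4b, was at 0.0337 FPKM (interval 0 to 0.0815) in EV and 0.118 FPKM (interval 0.0288 to 0.207) in PRSS35. C4BPB, the beta chain of C4b-binding protein, had 0.0380 FPKM in each library with intervals that reached 0. C4BPA, its alpha chain, and CFHR3 were listed at 0 in both. None of these low values separates the libraries, because the intervals overlapped wherever one was above 0.

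C3, the central component on which all routes converge, was the third most abundant transcript of the group. It had 81.8 FPKM (interval 78.1 to 85.5) in EV and 79.9 FPKM (interval 76.3 to 83.5) in PRSS35 cells, from chromosome 19 of hg19, 6677846 to 6720693. CFD, encoding factor D, the protease that cleaves factor B, had 48.3 FPKM (interval 45.0 to 51.6) in EV and 47.2 FPKM (interval 44.1 to 50.3) in PRSS35. For both genes the log2 change was -0.03 and the intervals overlapped. CFP, encoding properdin, which stabilises the alternative convertase, was listed at 0 in EV and had 0.0481 FPKM (interval 0 to 0.143) in PRSS35.

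C2 and CFB, neighbouring genes that encode the protease subunits of the classical and the alternative convertase, were listed at 0 in both libraries. Both loci nevertheless carried the identifier of a locus that Cufflinks had assembled from the reads, in EV and in PRSS35. Such a listing is no proof of absence, since 12.8% of the assembled named loci in EV and 12.9% in PRSS35 were listed at 0. Among these names is NDUFB10, a subunit of respiratory complex I that cells need for respiration, at 0 in EV and 537 FPKM in PRSS35. The neighbours of the pair were measured, with EHMT2 at 33.5 and 33.6 FPKM and NELFE at 119.9 and 157 FPKM in EV and PRSS35. The levels of C2 and CFB are therefore not known from these tables.

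The early classical and lectin components were low. C1R, a protease of the C1 complex, was the highest of these 11 genes, with 0.655 FPKM (interval 0.448 to 0.862) in EV and 0.543 FPKM (interval 0.355 to 0.731) in PRSS35. C1S, its partner protease, had 0.117 FPKM (interval 0.0304 to 0.203) in EV and 0.1 FPKM (interval 0.0163 to 0.184) in PRSS35. The chains of C1q, C1QA, C1QB and C1QC, were listed at 0 in both libraries. C4A, read at a locus joined with C4B_2, had 0.0988 FPKM in EV and 0.0693 in PRSS35, and C4B had 0.0988 and 0.0508 FPKM. C4A and C4B are near-identical copies, so reads may have been divided between them and the single values are uncertain. In the lectin pathway, the mannose-binding lectin MBL2 was at 0.0193 FPKM in each library. MASP1 and FCN3 were listed at 0 in EV and at 0.0244 and 0.0882 FPKM in PRSS35, with intervals that reached 0. MASP2, the protease that cleaves C4 and C2, had 0.292 FPKM (interval 0 to 1.18) in EV and was listed at 0 in PRSS35.

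The anaphylatoxin receptors sense the small fragments released from C3 and C5. C5AR1, the receptor of C5a, was at 0.570 FPKM (interval 0.380 to 0.759) in EV and 0.600 FPKM (interval 0.408 to 0.792) in PRSS35, and C3AR1 was listed at 0 in both. C5AR1 thus stayed below the level called expressed, and its intervals overlapped almost fully.

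**Figure D2:**
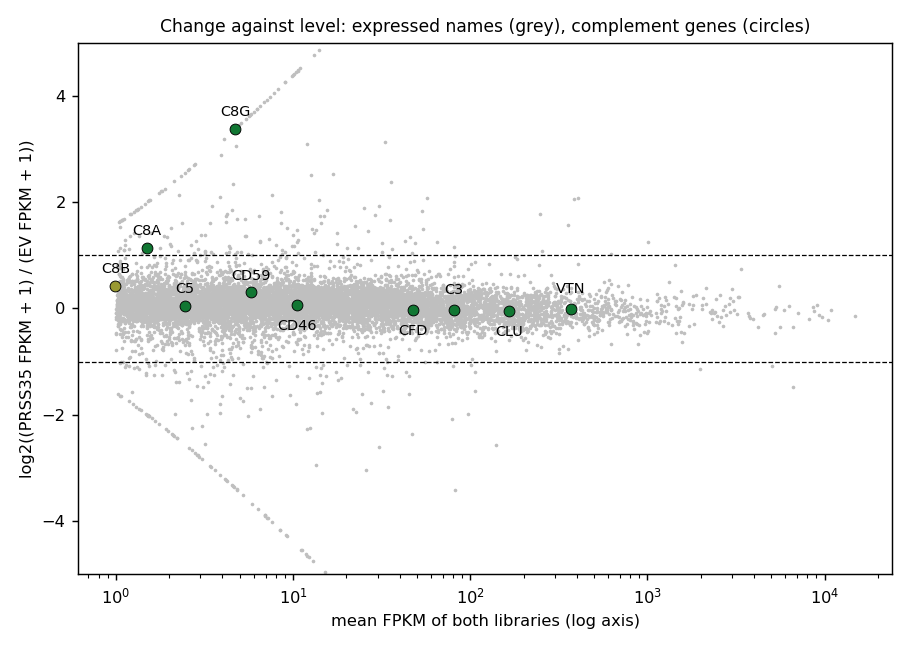
Log2 change, log2((PRSS35 FPKM + 1) / (EV FPKM + 1)), against the mean FPKM of both libraries (log axis) for the expressed names in grey and for the expressed complement genes and C8B as circles, with dashed lines at 2-fold. The 21 names with a change beyond 5 either way lie outside the plot, and the straight grey arms are names listed at 0 in 1 library, on one of which C8G lies at 0 in EV and 9.40 FPKM in PRSS35.

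Terminal components differed among themselves. C5, which is cleaved to start the membrane attack complex, had 2.39 FPKM (interval 2.15 to 2.63) in EV and 2.52 FPKM (interval 2.27 to 2.77) in PRSS35. Its intervals overlapped and its log2 change was 0.05. C6, C7 and C9 were listed at 0 in both libraries at loci that kept their annotation. Such zeros may be failed estimates too, since ANKZF1, also annotated in both libraries, had 13.1 FPKM in PRSS35 but 0 in EV. C8 is a complex of an alpha, a beta and a gamma chain, and all of its 3 chains had a higher value in PRSS35 cells. For the gamma chain, C8G, this is against a listed 0 in EV. The summed hepatocyte markers were higher too, mostly through SERPINA1, though APOA1, AFP and FGB among them had lower values. The part of these markers in the result was not tested.

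C8A, the alpha chain, had 0.556 FPKM (interval 0.371 to 0.741) in EV and 2.44 FPKM (interval 1.82 to 3.06) in PRSS35. The intervals did not overlap, the FPKM was 4.39-fold higher in PRSS35, and the log2 change was 1.14. C8B, the beta chain, had 0.708 FPKM (interval 0.480 to 0.936) in EV and 1.28 FPKM (interval 0.973 to 1.59) in PRSS35, with intervals that just failed to overlap. This is a 1.81-fold higher FPKM and a log2 change of 0.42. C8B missed the expression limit narrowly, with a mean FPKM of 0.994, while C8A, the lowest gene inside it, had a mean of 1.5. C8G, the gamma chain, a lipocalin, was listed at 0 in EV and had 9.40 FPKM (interval 7.84 to 11) in PRSS35.

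C8A and C8B lie next to each other on chromosome 1 of hg19, from 57320443 to 57383894 and from 57394883 to 57431813, transcribed towards each other with 10988 bases between them. C8G is on chromosome 9, where its locus started at 139839698 in EV and at 139839331 in PRSS35 and ended at 139841426 in both. The 250 bases before the transcription starts of C8A and C8B, whose values were higher together, are shown here, and those of VTN, the most abundant member, for comparison. The sequences are those of RefSeq on GRCh38.p14, and each was found by exact match on GRCh37, the assembly of hg19, at chr1:57320220-57320469 on the plus strand for C8A, chr1:57431689-57431938 on the minus strand for C8B and chr17:26697329-26697578 on the minus strand for VTN. The RefSeq starts lie inside the loci of the files, so each window overlaps the end of its locus. Capitals mark matches to the motifs given after them.
C8A: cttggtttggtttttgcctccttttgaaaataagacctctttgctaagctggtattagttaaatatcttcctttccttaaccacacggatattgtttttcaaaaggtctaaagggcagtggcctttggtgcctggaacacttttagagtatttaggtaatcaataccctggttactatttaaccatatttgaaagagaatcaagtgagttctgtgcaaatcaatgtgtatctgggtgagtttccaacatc
C8B: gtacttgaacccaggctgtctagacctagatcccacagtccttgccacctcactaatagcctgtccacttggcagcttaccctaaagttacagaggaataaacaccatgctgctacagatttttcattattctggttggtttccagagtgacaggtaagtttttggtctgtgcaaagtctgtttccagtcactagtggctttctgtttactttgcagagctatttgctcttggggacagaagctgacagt
VTN: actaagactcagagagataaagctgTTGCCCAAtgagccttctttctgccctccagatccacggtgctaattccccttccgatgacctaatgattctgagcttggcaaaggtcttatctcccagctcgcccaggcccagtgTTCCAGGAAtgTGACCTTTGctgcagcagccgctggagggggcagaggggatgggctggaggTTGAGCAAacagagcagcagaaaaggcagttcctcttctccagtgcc

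On both strands, 6 motifs, those of liver and acute-phase promoters and a TATA-type box, were searched in these 250 bases. They included CAAAGTCCA and CAAAGGTCA for HNF4, GTTAAT as a half-site of HNF1 and TTGCNNAA for C/EBP factors. The others were TTCNNNGAA for STAT factors and TATAAA for the TATA-type box. The promoters of C8A and C8B held none of these letters. The VTN promoter held CAAAGGTCA read on the opposite strand from 98 to 90 bases before the start, TTCCAGGAA from 109 to 101 bases before it, and TTGCNNAA at 2 places. These matches did not overlap each other. Of all 35116 RefSeq promoter entries, 0.339% held CAAAGGTCA, 6.57% held TTCNNNGAA, 9.05% held TTGCNNAA, 0.325% held CAAAGTCCA, 6.23% held GTTAAT and 10.7% held TATAAA. Among 38 entries for 25 of the complement genes, some of which overlap each other, these shares were 2.63%, 28.9%, 26.3%, 0%, 13.2% and 7.89% in the same order. Such matches are a description and name no site in use. No entry was used for C1QC, C1S, C4A, C4B, FCN3, C3, C8G, CFHR3 and CLU.

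Whether Cufflinks kept the annotated locus or assembled it differed between the libraries for C8A and C8B. C8G was assembled in both, but its locus started at 139839698 in EV and at 139839331 in PRSS35. The program assembled transcripts in each library separately, and a locus either kept its annotated identifier or was assembled anew from the reads. C8A and C8B kept their annotation in EV and were assembled in PRSS35. Among the 34 genes this held for 5, of which C8A, C8B and CD59 were above 0 in both libraries, and these are also the 3 genes above 0 in both whose intervals did not overlap. Of the 9 expressed genes, 3 (CD59, C8A and C8G) were higher and 0 lower with intervals that did not overlap. C8A and C8G count as expressed only through PRSS35, the library in which they were higher. The interval of C8G in EV is 0 to 0, as for any listed 0, so any value with a lower bound above 0 fails to overlap it. Only CD59 is free of these limits. Of all expressed names, 24.7% were higher and 14.3% lower in PRSS35 with intervals that did not overlap. Of the expressed names above 0 in both that were annotated in EV and assembled in PRSS35, 36.6% were higher in this way and 4.23% were higher by 2-fold or more. The expressed complement genes among them were C8A and CD59, of which C8A was higher by 2-fold. The median log2 change of these 1087 names was 0.15, with quartiles of 0.01 and 0.32, and it was 0.08 for names annotated in both. C8A and C8B, at 1.14 and 0.42, lay above the upper quartile of their own class, and CD59, at 0.30, lay within it. The part of assembly in these differences was not tested.

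**Figure D3:**
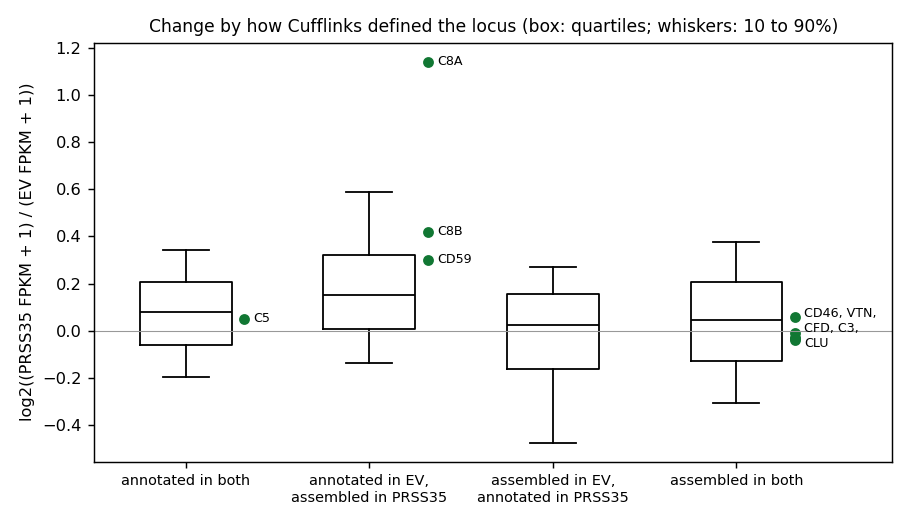
Log2 change of expressed names above 0 in both libraries, by whether Cufflinks kept the annotated locus or assembled it in each library (boxes, quartiles with the median; whiskers, the 10th to 90th percentile), with complement genes as green points beside the box of their class. C8A, C8B and CD59 share the class annotated in EV and assembled in PRSS35, whose median is 0.15, and C8B, just below the expression limit, is shown though it is not among the boxed names.

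The interval also tells how many fragments stand behind a value, since a narrower interval relative to the FPKM implies more of them. For C8A it implied about 36.2 fragments in EV and 62.1 in PRSS35, a ratio of 1.71. For C8B it implied 38.6 and 69.3 fragments, a ratio of 1.80. The FPKM worth of 1 fragment had a ratio of 1.01 for C8B, but was 2.56 times as large for C8A in PRSS35 as in EV. For CD59, the other expressed gene of the class, it implied 886 fragments in EV and 764 in PRSS35, a ratio of 0.862, which runs opposite to its FPKM. Thus C8A and C8B differed by about the same ratio in implied fragments, whereas of this pair C8A alone differed by 2-fold or more in FPKM. In the class annotated in EV and assembled in PRSS35, the median of this worth was 1.12, with an upper quartile of 1.65. C1R and C5AR1, annotated in both libraries at a like level, had implied fragment ratios of 0.835 and 1.07. Implied fragments are derived from intervals that also hold assignment error, and are not read counts.

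**Figure D4:**
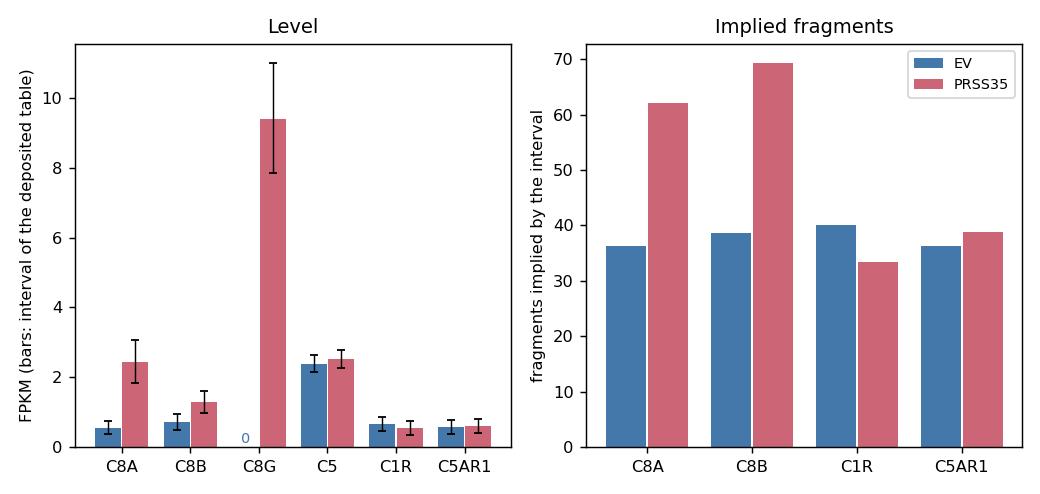
Left, FPKM of the C8 chains, C5, C1R and C5AR1 in EV and PRSS35, with the interval of each value as error bars and 0 written where a gene is listed at 0. Right, fragments implied by the interval for C8A, C8B, C1R and C5AR1, where C8A and C8B go from 36.2 and 38.6 in EV to 62.1 and 69.3 in PRSS35 and C1R and C5AR1 stay between 33.4 and 40.0.

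C8G was assembled in both libraries, and its interval in PRSS35 implied about 145 fragments. Of the 6641 names with at least 5 FPKM in PRSS35, 0.663% were listed at 0 in EV, as C8G was. Of its neighbours, FBXW5 was at 407 FPKM (interval 389.7 to 425) in EV and 328 FPKM (interval 314 to 343) in PRSS35. FBXW5 was thus lower in PRSS35 with intervals that did not overlap. It ends at 139839206, and the C8G locus reached further towards it in PRSS35 than in EV. The part of this in the C8G value was not tested. LCN12 was at 3.03 and 1.71 FPKM with overlapping intervals, so neither neighbour was higher in PRSS35. As an exact 0 can be a failed estimate, no FPKM ratio is given for C8G. Whether it was expressed in EV cells is not known from these tables, so its call of 2-fold or more may not be a change.

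Membrane regulators protect the cells that carry them. CD46, the cofactor for cleavage of C3b and C4b, had 10.2 FPKM (interval 9.53 to 10.9) in EV and 10.7 FPKM (interval 9.99 to 11.4) in PRSS35, a log2 change of 0.06. CD59, which blocks the insertion of C9, had 5.08 FPKM (interval 4.74 to 5.43) in EV and 6.51 FPKM (interval 6.04 to 6.98) in PRSS35. The FPKM of CD59 was 1.28-fold higher in PRSS35 with intervals that did not overlap, at a locus assembled only there, while its implied fragments were fewer in PRSS35. CD55, which speeds the decay of convertases, was low, with 0.172 FPKM (interval 0.0287 to 0.316) in EV and 0.108 FPKM (interval 0 to 0.229) in PRSS35. CD46 and CD59 were thus present in both libraries and CD55 was close to the limit of detection in both.

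A second list held 26 complement genes outside the 34, of which 5 were expressed and 0 were higher or lower by 2-fold. C1QBP, a mitochondrial protein that binds C1q, was at 712 FPKM in EV and 761 FPKM in PRSS35. SERPING1, the inhibitor of C1r and C1s, was at 85.7 FPKM (interval 82.1 to 89.3) in EV and 90.1 FPKM (interval 86.3 to 94.0) in PRSS35. CPN1, a chain of the carboxypeptidase that inactivates anaphylatoxins, was at 60.8 and 60.4 FPKM, while CPN2, its partner chain, was listed at 0 in both. C1RL, a C1r-like protease, was at 5.33 FPKM (interval 4.80 to 5.86) in EV and 7.18 FPKM (interval 6.56 to 7.81) in PRSS35, the only one of these 5 whose intervals did not overlap. SUSD4 was at 1.09 and 1.08 FPKM.

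The scaling of the libraries bears on every change given here. The sum of FPKM over all loci, named or not, was 2469030 in EV and 1508529 in PRSS35. When FPKM was divided by this sum and multiplied by the mean of both sums, the median log2 change of all expressed names moved from 0.06 to 0.68, with 1080 names higher and 100 lower by 2-fold in place of 192 and 186. VTN, CLU, C3 and CFD then had log2 changes between 0.66 and 0.70, at that median. C8A and C8G remained above 2-fold, at 1.54 and 3.74, on a scale where the median name was at 0.68. With FPKM divided by its sum over named loci the median of all expressed names was 0.10, and with the upper quartile as divisor it was 0.01.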

How the data were processed

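RNA from 1 EV and 1 PRSS35 culture of PLC cells was sequenced on a HiSeq2500, and whether strand was used in counting is not given in the sources used here, so antisense reads cannot be told apart. The authors aligned reads to hg19 with TopHat2 2.1.0 and assembled and quantified transcripts with Cufflinks 2.2.1, and the labels name Cuffdiff 2.2.1 in its place. The values are the deposited FPKM per locus, scaled by the authors to transcript length and mapped fragments, with their lower and upper bounds.

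Loci on alternate and unplaced contigs were left out and FPKM was summed over loci that share a name, which left 24991 names in both libraries, with 283 names in EV and 274 in PRSS35 unpaired. C4A was taken from the joined name C4A,C4B_2. Changes were computed as log2 ratios after 1 FPKM was added to both values. Names with a mean of at least 1 FPKM were called expressed (10133), and 2-fold was the limit for higher or lower. With 1 library per condition no test was run. Implied fragments are (2 FPKM / (upper bound - FPKM)) squared. The 34 genes, both gene lists, the markers and the motifs were chosen with earlier results of these data known. All 34 genes are accounted for, with both values for those expressed, and the 5 expressed genes of the second list are named. Some genes of that list are not reported here. The script that makes the fold calls was tested on simulated data, which gives no error rate between cultures. Alternatives covered pseudocount, filter, scaling, centring, threshold, highest locus, listed zeros and assembled loci. Python 3.11.15, numpy 2.4.6, pandas 2.3.3 and matplotlib 3.10.9 were used.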

Additional observations from a re-analysis of the deposited data

Results flagged for a closer look

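Unnamed loci were not part of any comparison, and 2 of them overlap complement genes in the PRSS35 library, where the EV library has no unnamed locus over the same genes. Over CFB, which is listed at 0 in both libraries, an unnamed stretch on chromosome 6 of hg19, 31917633 to 31919045 (1413 bases), had 1.06 FPKM (interval 0.709 to 1.42). Over C8G, another on chromosome 9, 139839331 to 139841345 (2015 bases), had 0.746 FPKM (interval 0.483 to 1.01), beside the 9.40 FPKM of the named C8G locus. The strand of these loci is not given, and their source was not tested.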

How the results depend on the processing

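No paired analysis was possible because EV and PRSS35 are single libraries. No expressed complement gene was lower by 2-fold under any of the 12 alternatives run. The number higher by 2-fold was 2 (C8A and C8G). It was 1 (C8G) with a pseudocount of 5 FPKM and 1 (C8A) among names above 0 in both libraries. It was 0 among genes with a mean of at least 5 FPKM and 0 among names annotated in both libraries. The last 3 settings leave 8, 6 and 1 of the genes, without C8G, without both C8 genes, and with C5 alone. The median log2 change of 0.05 was 0.70 when FPKM was taken relative to the total over all loci, where the median of all names was 0.68, and lay between -0.02 and 0.08 otherwise. For 12 single genes, 80 of 98 alternative values moved by no more than the error of the change that the intervals give, and 18 moved further, 12 of them with that scaling and 6 with other pseudocounts for C8A, C8B and C8G. The log2 change of C8A ran from 0.42 with a pseudocount of 5 FPKM to 1.95 with 0.1 FPKM, and that of C8B from 0.14 to 0.77 with the same pseudocounts. Under centring on the median change, VTN, CLU, C3 and CFD were at or above -0.10. About 36.2 to 69.3 implied fragments stand behind the C8A and C8B values, and 1 library per condition gives no spread between cultures.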
